A study of Mus musculus with 4 samples.

Results

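Expression of 9 osteoclast-related genes was examined in macrophage cultures grown from the bone marrow of GM1082 knockout and wild-type mice. The genes were taken by symbol from the deposited expression table: Acp5, Nfatc1, Tnfrsf11a, Dcstamp, Ocstamp, Oscar, Atp6v0d2, Mitf and Calcr. Of the 9 symbols, 8 were found among 62046 rows, and Calcr, the calcitonin receptor gene, was not analysed here. The knockout group was 2 libraries of genotype GM1082 KO (GM1082-/-) and the control group 2 wild-type libraries. All 4 were bone marrow cells given M-CSF for 5 days and labelled as bone marrow derived macrophages, with no RANK ligand named among the treatments. The sources used here give no strain, age, sex or design of the knockout allele. Nor do they tie the libraries to animals, so the p-values reflect the spread among these 4 libraries, part of which may be technical.

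Osteoclasts are the multinucleated cells that resorb bone, and they form from the same marrow precursors as macrophages. M-CSF keeps these precursors alive and makes them express RANK, the receptor encoded by Tnfrsf11a, and RANK ligand then switches on the transcription factor encoded by Nfatc1. NFATc1, together with MITF and AP-1 factors, turns on the genes of cell fusion (Dcstamp, Ocstamp, Atp6v0d2), of acid and enzyme secretion (Acp5, Ctsk) and of the surface receptors Oscar and Calcr.

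Levels are FPKM, fragments scaled to transcript length and library size by the authors. By the spacing of low values, 1 FPKM in a transcript of 1 kb stood for 17.7 and 18.2 fragments in knockout libraries 1 and 2 and for 19.1 fragments in both wild-type libraries. RefSeq lists Gm1082 as a synonym of Arhgap33os, and the noncoding row NONMMUG078287.1, whose start and end equal those of that gene, was at 0.0639 and 0.0624 FPKM in the knockout and at 0.0792 and 0.0198 FPKM in wild type. The label GM1082 was tied to this gene through the synonym only, and at these levels the loss of the transcript was not detectable. The macrophage markers Csf1r, Adgre1 and Cd68 stood between 104 and 167 FPKM in all 4 libraries. Of 10 osteoblast and marrow stromal markers, 8 averaged under 1 FPKM, among them Sp7 and Cxcl12, each listed at 0 in 1 library. The other 2 were Runx2, at 11.9 and 11.4 FPKM in the knockout and at 13.3 and 12.7 FPKM in wild type, and Lepr, at 2.47 and 2.14 FPKM in the knockout and at 2.40 and 1.90 FPKM in wild type.

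The 8 genes spanned a wide range of levels and fell into a well-expressed, a weakly expressed and a barely detected group, in the same order of groups in both genotypes. Atp6v0d2 was the most abundant, with a mean over the 4 libraries of 29.8 FPKM, above 91.1% of mRNA rows. Nfatc1 followed at 18.0 FPKM, and its highest library lay below the lowest of Atp6v0d2. Mitf (8.83 FPKM), Dcstamp (8.18 FPKM) and Acp5 (7.16 FPKM) came next, and the ranges of these 3 genes over the 4 libraries overlapped, so their order is not resolved. Tnfrsf11a averaged 2.54 FPKM, above 45% of mRNA rows and below every library of Acp5. Ocstamp (0.163 FPKM) and Oscar (0.126 FPKM) overlapped with each other and lay 15.6-fold and 20.2-fold below Tnfrsf11a. Of the 8 genes, 6 averaged at least 1 FPKM and were tested between the genotypes.

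**Figure D1:**
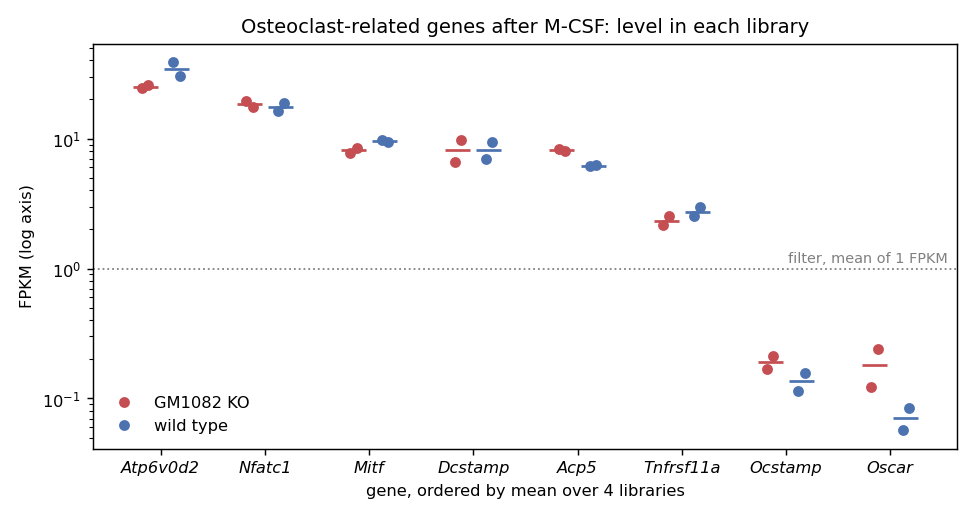
FPKM of 8 osteoclast-related genes in each library on a log axis. Points are libraries (GM1082 KO left, wild type right), short lines are genotype means of 2 libraries, and the dotted line is the filter of 1 FPKM. Ocstamp and Oscar lie below the filter in all 4 libraries.

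Between the genotypes, none of the 6 tested genes differed past the threshold. Values were compared as log2(FPKM + 1) with limma, and p-values were adjusted over all 24535 rows that averaged 1 FPKM or more. At an adjusted p of 0.05, 0 of 6 passed, where 0.0122% of all rows tested did (3 rows; 0 without either knockout library, 12 without wild-type library 1 and 24 without wild-type library 2). Before adjustment, 2 of 6 had a p below 0.05, Atp6v0d2 lower and Acp5 higher in the knockout, against 5.36% of all rows. The median change of the 6 genes was -0.09, beside -0.01 for all rows tested. For 1 of the 6 the knockout libraries were both higher than either wild-type library (13.2% of all rows), and for 3 they were both lower (17.7% of all rows).

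**Figure D2:**
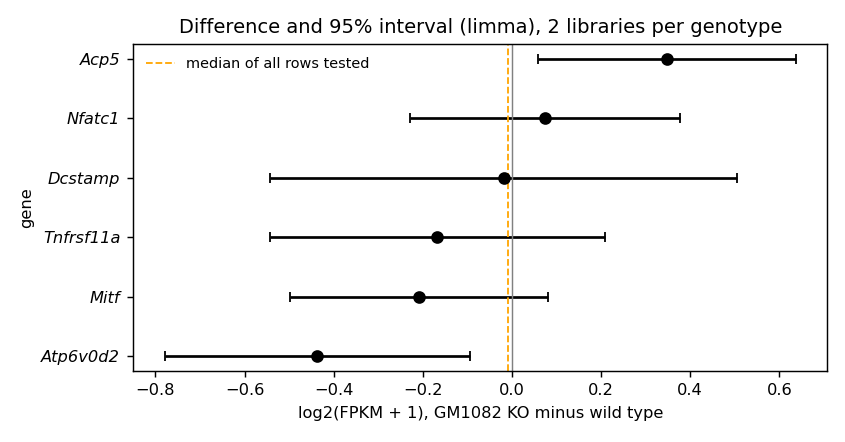
Difference in log2(FPKM + 1), GM1082 KO minus wild type, for the 6 tested genes with 95% intervals from limma (2 libraries per genotype). The dashed line is the median of all rows tested, -0.01. The intervals of Acp5 and Atp6v0d2 do not reach 0, and neither gene passed after adjustment.

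Among the receptors, Tnfrsf11a encodes RANK, the receptor for RANK ligand on osteoclast precursors. It was at 2.15 and 2.52 FPKM in the knockout and at 2.54 and 2.95 FPKM in wild type (chromosome 1, 105780718 to 105847981, plus strand). The genotypes did not overlap, but the highest knockout library and the lowest wild-type library nearly touched. The log2 change was -0.17 (SE 0.15, 95% interval -0.54 to 0.21, limma adjusted p = 1 after rounding), and it was -0.09 without wild-type library 2 or without knockout library 1. RANK mRNA was thus present at a low level in every library.

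Oscar, which encodes an immunoglobulin-like receptor that signals through the Fc receptor gamma chain, was at 0.122 and 0.239 FPKM in the knockout and at 0.0568 and 0.0851 FPKM in wild type (chromosome 7, 3609813 to 3616157, minus strand). At the depth of each library, the smallest whole numbers of fragments that give these values are 4 and 8 in the knockout and 2 and 3 in wild type. Both knockout libraries were the higher ones, which held for 18.0% of the rows with a mean of 0.1 to 1 FPKM. On those fragment numbers the knockout level was 2.55 times the wild-type level, with a 95% counting interval of 0.84 to 9.25 that covers counting error only. If these smallest numbers are the true ones, a difference was therefore not detectable at this depth. With a filter of 0.1 FPKM, the limma adjusted p of Oscar was 0.971.

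The transcription factors were well expressed. Nfatc1, the gene of the factor that drives osteoclast formation after RANK signalling, was at 19.3 and 17.6 FPKM in the knockout and at 16.3 and 18.7 FPKM in wild type (chromosome 18, 80606205 to 80713071, minus strand). The genotypes overlapped, with the lowest value in wild-type library 1 and the highest in knockout library 1. The log2 change was 0.07 (SE 0.12, 95% interval -0.23 to 0.38, limma adjusted p = 1 after rounding), and -0.0198 without wild-type library 1. Its relatives stood lower. Nfatc3 was at 15.3 and 15.5 FPKM in the knockout and at 14.4 and 15.2 FPKM in wild type, and Nfat5, which responds to osmotic stress, at 11.1 FPKM in both knockout libraries and at 11.8 and 11.3 FPKM in wild type. Nfatc2 was at 8.42 and 9.25 FPKM in the knockout and at 7.48 and 9.07 FPKM in wild type, while Nfatc4 did not exceed 0.185 FPKM in any library. Nfatc1 made up 35.5% and 32.9% of the summed FPKM of these 5 genes in the knockout and 32.6% and 34.4% in wild type.

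Mitf, a basic helix-loop-helix factor that acts on osteoclast and melanocyte genes, was at 7.81 and 8.43 FPKM in the knockout and at 9.67 and 9.40 FPKM in wild type (chromosome 6, 97807052 to 98021349, plus strand). Both knockout libraries were below both wild-type libraries. The log2 change was -0.21 (SE 0.12, 95% interval -0.50 to 0.08, limma adjusted p = 1 after rounding). Of the other genes of the same MiT/TFE family, Tfec was the most abundant, at 15.6 and 20.5 FPKM in the knockout and at 23.1 and 22.1 FPKM in wild type (log2 change -0.32, SE 0.15, limma adjusted p = 1 after rounding). Without knockout library 1 the change of Tfec was -0.13, and without knockout library 2 it was -0.51. Tfe3 was at 8.74 and 7.60 FPKM in the knockout and at 8.36 and 8.32 FPKM in wild type, and Tfeb at 10.6 and 7.08 FPKM in the knockout and at 7.32 and 8.48 FPKM in wild type. These relatives, which can pair with MITF on DNA, overlapped between genotypes except Tfec. The share of Mitf in the summed FPKM of the 4 genes was 18.3% and 19.3% in the knockout and 20% and 19.4% in wild type.

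The fusion genes stood at very different levels. Dcstamp encodes a multipass membrane protein needed for the fusion of osteoclast precursors and was first described in dendritic cells. It was at 6.59 and 9.72 FPKM in the knockout and at 7.01 and 9.42 FPKM in wild type (chromosome 15, 39745930 to 39760938, plus strand). The spread within a genotype was larger than that between them, and library 2 was the higher one in each genotype. The log2 change was -0.02 (SE 0.21, 95% interval -0.54 to 0.51, limma adjusted p = 1 after rounding), so differences within that interval cannot be told from none. It turned to 0.17 without wild-type library 2 and to 0.23 without knockout library 1. Of the 8 dendritic cell markers, Itgax, which macrophages also express, was at 56.3 and 69.6 FPKM in the knockout and at 66.1 and 75.8 FPKM in wild type. Of the other markers, Flt3 and Zbtb46 averaged 3.08 and 1.99 FPKM over the 4 libraries, and Xcr1 did not exceed 0.271 FPKM. Ccl22, Ccr7, Siglech and Cd209a averaged 48.6, 22.1, 9.90 and 1.63 FPKM.

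Ocstamp, the partner of Dcstamp in osteoclast fusion, was barely detected, at 0.170 and 0.211 FPKM in the knockout and at 0.115 and 0.158 FPKM in wild type (chromosome 2, 165393760 to 165400405, minus strand). The smallest whole numbers of fragments that give these values are 11 and 14 in the knockout and 8 and 11 in wild type. In FPKM both knockout libraries were the higher ones, which held for 18.0% of the rows with a mean of 0.1 to 1 FPKM. Knockout library 1 and wild-type library 2 are equal at 11 fragments, so their order in FPKM comes from the scaling to depth. On those fragment numbers the ratio of the genotypes was 1.4, with a 95% counting interval of 0.74 to 2.69. Averaged over the 4 libraries, Dcstamp was 50.2-fold above Ocstamp in FPKM.

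Atp6v0d2 encodes the d2 subunit of the vacuolar proton pump, which osteoclasts use to acidify bone and which is also needed for their fusion. It was at 24.5 and 25.7 FPKM in the knockout and at 38.6 and 30.5 FPKM in wild type (chromosome 4, 19876841 to 19922605, minus strand). Both knockout libraries lay below both wild-type libraries, and wild-type library 1 was well above the other 3 libraries. The log2 change was -0.44 (SE 0.14, 95% interval -0.78 to -0.09, unadjusted p = 0.0207, limma adjusted p = 0.826). Without wild-type library 1 it was -0.27 (limma adjusted p = 1 after rounding) and without wild-type library 2 it was -0.60 (adjusted p = 0.531). In bulk cultures, fewer cells of a type and less RNA per cell cannot be told apart.

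The ubiquitous paralogue Atp6v0d1 was at 106 and 107 FPKM in the knockout and at 106 and 112 FPKM in wild type. Atp6v0d2 thus made up 18.8% and 19.4% of the summed FPKM of these paralogues in the knockout and 26.6% and 21.4% in wild type. Of 22 other genes of the pump, 17 were tested and 0 passed. Their median log2 change was -0.05, with 0 of 17 higher and 3 lower without overlap between genotypes (13.2% and 17.7% of all rows tested). Tcirg1, the a3 subunit that osteoclasts use and also a member of the resorption list below, was at 53.1 and 45.8 FPKM in the knockout and at 50.9 and 55.7 FPKM in wild type. The most abundant subunits beside Atp6v0d1 were Atp6v1g1 and the accessory subunit Atp6ap2, which averaged 105 and 60.6 FPKM in the knockout and 111 and 63.6 FPKM in wild type. The smallest unadjusted p belonged to Atp6v1c1 (19.6 and 23.2 FPKM in the knockout, 26.9 and 24.7 FPKM in wild type) and Atp6v1d (17.0 and 20.2 FPKM in the knockout, 21.4 and 21.1 FPKM in wild type).

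Acp5 encodes tartrate-resistant acid phosphatase, the enzyme stained to identify osteoclasts, which macrophages also make. It was at 8.26 and 8.03 FPKM in the knockout and at 6.15 and 6.22 FPKM in wild type (chromosome 9, 22126727 to 22135711, minus strand). The libraries of each genotype lay close together and the genotypes did not overlap. The log2 change was 0.35 (SE 0.12, 95% interval 0.06 to 0.64, unadjusted p = 0.0257, limma adjusted p = 0.846), a ratio of mean FPKM of 1.32. Its direction was the same in all 14 alternatives, in which the log2 change lay between 0.33 and 0.39. As the genotypes did not overlap, leaving out 1 library could not turn this direction.

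Markers of other marrow cells also differed between the libraries, without passing the test. All 5 eosinophil markers measured were higher in each knockout library than in either wild-type library (13.2% of all rows tested), with summed levels of 151 and 65.7 FPKM in the knockout and 40.1 and 40.4 FPKM in wild type. The eosinophil receptor gene Ccr3 was at 16.3 and 12.9 FPKM in the knockout and at 7.98 and 7.01 FPKM in wild type (limma adjusted p = 0.459). The 10 neutrophil markers summed to 21722 and 18775 FPKM in the knockout and to 17684 and 16595 FPKM in wild type. S100a8 and S100a9 made up most of each sum. Of the 10, 4 were higher without overlap (13.2% of all rows tested), S100a8, S100a9, Elane and Mpo. Elane was at 180 and 87.1 FPKM in the knockout and at 57.4 and 66.3 FPKM in wild type. Mpo was at 49.8 and 36.0 FPKM in the knockout and at 18.8 and 25.6 FPKM in wild type. The 6 that overlapped were highest in knockout library 1, such as Ngp, at 1530 and 731.5 FPKM in the knockout and at 773.4 and 755 FPKM in wild type. The 9 macrophage markers summed to 1942 and 2165 FPKM in the knockout and to 2520 and 2495 FPKM in wild type. Of the 9, 3 were lower without overlap (17.7% of all rows tested) and 6 overlapped between the genotypes. Most of each sum was the lysozyme gene Lyz2, at 1373 and 1586 FPKM in the knockout and at 1907 and 1935 FPKM in wild type. The sums thus follow this 1 gene. The 8 B cell markers summed to 171 and 137 FPKM in the knockout and to 117 and 176 FPKM in wild type, and the 8 dendritic cell markers to 136 and 162 FPKM in the knockout and to 148 and 171 FPKM in wild type. The part of these cells in the levels of Acp5 and Atp6v0d2 was not tested.

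Sequence around the start sites was taken from RefSeq (GRCm38.p6), in windows of 300 bases running from 250 before to 50 after each annotated start. Windows were found for Acp5, Tnfrsf11a, Oscar, Mitf and Calcr. The letters searched on both strands were CATGTG, an E-box form that MITF binds, GGAAA, the core of NFAT sites, and TGANTCA, the AP-1 site. CATGTG was present in 14.2% of all 32851 windows, GGAAA in 61.3% and TGANTCA in 7.8%. Acp5 has 3 annotated starts, and its most downstream window held 1 CATGTG and 2 GGAAA. Its middle and upstream windows each held 0 and 1. The single window of Oscar held 1 CATGTG and 4 GGAAA. Neither Tnfrsf11a nor Mitf had CATGTG in any window, and TGANTCA was in no window of the 5 genes. The window of Oscar and 2 of the 3 windows of Acp5 are shown because both genes are known targets of these factors and stood far apart in level. Capitals mark CATGTG and GGAAA on either strand, so that CACATG and TTTCC are the same letters read on the other strand, and no marked motifs overlap.
Acp5, downstream start, chr9:22130549-22130848, minus strand: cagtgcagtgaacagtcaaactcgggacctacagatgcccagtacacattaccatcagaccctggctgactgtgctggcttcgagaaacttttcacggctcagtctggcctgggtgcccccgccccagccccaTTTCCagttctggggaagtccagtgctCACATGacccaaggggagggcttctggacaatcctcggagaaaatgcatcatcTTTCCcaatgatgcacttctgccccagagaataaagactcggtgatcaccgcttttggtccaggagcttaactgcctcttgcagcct
Acp5, upstream start, chr9:22135697-22135996, minus strand: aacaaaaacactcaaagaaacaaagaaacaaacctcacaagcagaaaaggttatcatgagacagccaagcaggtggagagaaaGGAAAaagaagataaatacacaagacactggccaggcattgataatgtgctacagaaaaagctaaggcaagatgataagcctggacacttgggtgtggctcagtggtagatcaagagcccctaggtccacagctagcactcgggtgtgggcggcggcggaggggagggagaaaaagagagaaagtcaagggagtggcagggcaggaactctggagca
Oscar, chr7:3616108-3616407, minus strand: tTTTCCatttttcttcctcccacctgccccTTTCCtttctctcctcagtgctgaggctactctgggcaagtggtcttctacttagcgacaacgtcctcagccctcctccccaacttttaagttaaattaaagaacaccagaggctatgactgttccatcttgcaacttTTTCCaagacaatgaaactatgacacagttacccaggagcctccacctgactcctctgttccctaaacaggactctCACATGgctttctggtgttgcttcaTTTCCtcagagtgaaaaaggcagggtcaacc
Among the 10 windows found for the 5 genes, only the downstream one of Acp5 and that of Oscar held CATGTG (14.2% of all windows). Acp5 averaged 57-fold the FPKM of Oscar over the 4 libraries, and a part of these letters in either level was not tested. The table gives 1 value per gene, so the starts of Acp5 could not be told apart.

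Noncoding rows lay inside the spans of several of these genes. Of 9 rows that overlapped one of the 8 genes, 4 overlapped Nfatc1, 2 Atp6v0d2, 2 Mitf and 1 Acp5, and 7 were tested. The span of Atp6v0d2 held NONMMUG071922.1 on the opposite strand, at 1.79 and 2.42 FPKM in the knockout and at 3.50 and 2.86 FPKM in wild type (log2 change -0.43, SE 0.18, limma adjusted p = 0.931). It also held NONMMUG028635.2 on the same strand, at 4.05 and 4.78 FPKM in the knockout and at 6.64 and 4.49 FPKM in wild type. In both rows, as in Atp6v0d2, wild-type library 1 was the highest.

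Inside Mitf, both noncoding rows had lower values in the knockout. NONMMUG036110.2, a short row on the opposite strand, was at 2.69 and 3.06 FPKM in the knockout and at 6.66 and 4.16 FPKM in wild type (log2 change -0.70, SE 0.21, limma adjusted p = 0.817). NONMMUG036111.2 on the same strand was at 3.19 and 3.83 FPKM in the knockout and at 4.69 and 4.40 FPKM in wild type (log2 change -0.30, SE 0.14, adjusted p = 1 after rounding). The 3 tested rows inside Nfatc1 were on the opposite strand and averaged between 4.21 and 6.36 FPKM in the knockout and between 4.18 and 5.52 FPKM in wild type, with log2 changes between -0.04 and 0.17. Of the 7 tested rows, 3 were lower without overlap between genotypes (21.8% of all noncoding rows tested), all of them inside genes that were themselves lower. Another, NONMMUG020440.2 inside Nfatc1, was higher without overlap (11.8% of all noncoding rows tested), at 6.65 and 6.08 FPKM in the knockout and at 5.54 and 5.51 FPKM in wild type. The row across Acp5 did not exceed 0.144 FPKM. The sources used here do not say whether counting used strand, so reads of a gene and of a row inside its span cannot be told apart.

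**Figure D3:**
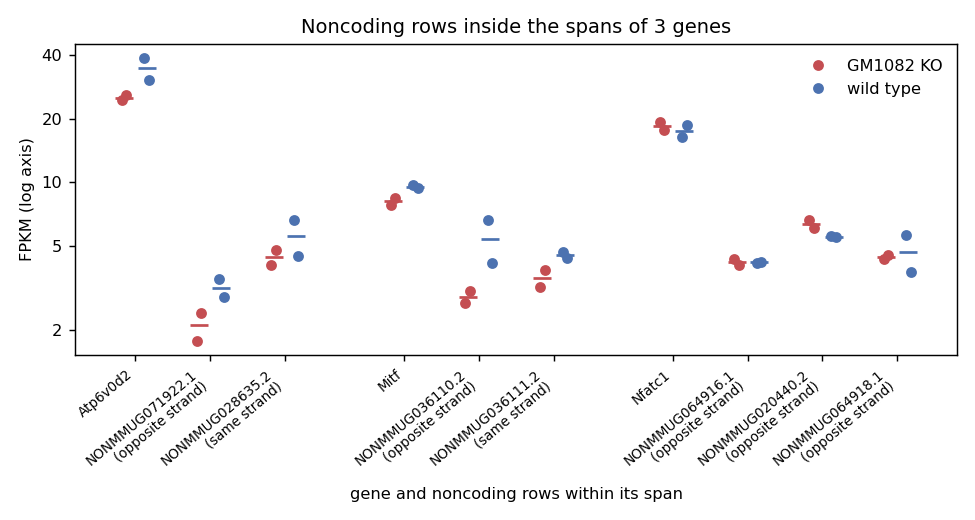
FPKM per library (log axis) of Atp6v0d2, Mitf and Nfatc1, each followed by the tested noncoding rows inside its span, with GM1082 KO left and wild type right and short lines for means of 2 libraries. Rows inside Atp6v0d2 and Mitf had lower knockout means, while those inside Nfatc1 had log2 changes between -0.04 and 0.17.

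Outside the 9 genes, 93 genes of the osteoclast pathway and of related families were all found in the table. Of the 93, 81 were tested and 0 passed with limma (smallest adjusted p = 0.581). An unadjusted p below 0.05 was seen for 2 of the 81, against 5.36% of all rows tested. The median log2 change of the 81 was -0.03, with 9 higher and 16 lower without overlap between genotypes (13.2% and 17.7% of all rows tested).

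The ligand of RANK and its decoy receptor were barely detected. Tnfsf11, the RANK ligand gene, was at 0.353 and 0.0739 FPKM in the knockout and at 0.164 and 0.188 FPKM in wild type. Tnfrsf11b, which encodes the decoy receptor osteoprotegerin, did not exceed 0.0372 FPKM, and Il34, the other ligand of the M-CSF receptor, did not exceed 0.214 FPKM. Csf1, the M-CSF gene itself, was at 25.9 and 25.5 FPKM in the knockout and at 25.0 and 19.2 FPKM in wild type. The receptor gene Csf1r was at 104 and 113 FPKM in the knockout and at 121 and 117 FPKM in wild type. The adaptor genes of costimulation were among the most abundant, with Tyrobp (DAP12) at 535 and 397 FPKM in the knockout and 434 and 423 FPKM in wild type. Fcer1g, the Fc receptor gamma chain that pairs with OSCAR, was at 234 and 208 FPKM in the knockout and at 232 and 223 FPKM in wild type. Trem2, a receptor that pairs with DAP12, was at 9.57 and 9.19 FPKM in the knockout and at 11.6 and 11.5 FPKM in wild type (log2 change -0.27, SE 0.11, limma adjusted p = 0.935). The kinase gene Tec was at 32.6 and 30.0 FPKM in the knockout and at 27.9 and 27.4 FPKM in wild type. Of 19 genes in this list, 14 were tested, 0 passed, and the median log2 change was -0.01.

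Of 16 transcription factors that favour osteoclasts, 0 passed, 3 were higher and 0 lower without overlap (13.2% and 17.7% of all rows tested), and the median log2 change was 0.02. Spi1, the gene of PU.1, was at 97.2 and 77.9 FPKM in the knockout and at 83.2 and 87.8 FPKM in wild type. The AP-1 genes Junb and Jund averaged 92.8 ± 33.8 and 55.2 ± 12.1 FPKM in the knockout and 77.5 ± 9.11 and 43.1 ± 6.09 FPKM in wild type (SD, n = 2). Jdp2, an AP-1 partner needed for osteoclast formation in mice, was at 25.6 and 24.0 FPKM in the knockout and at 21.5 and 20.3 FPKM in wild type (log2 change 0.24, SE 0.11, limma adjusted p = 0.988). Myc was at 36.6 and 41.2 FPKM in the knockout and at 31.3 and 34.5 FPKM in wild type. Of 6 factors that restrain osteoclasts, 0 passed and the median was -0.06. Among them Id2 averaged 82.9 ± 5.15 FPKM in the knockout and 86.5 ± 5.56 in wild type, and Id1 51.8 ± 9.44 in the knockout and 50.3 ± 4.67 in wild type. Rbpj, the Notch effector, was at 53.3 and 58.4 FPKM in the knockout and at 65.9 and 61.9 FPKM in wild type.

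In the list of bone resorption and attachment, 14 genes were tested, 0 passed, 1 was higher and 5 were lower without overlap (13.2% and 17.7% of all rows tested), and the median log2 change was -0.04. Ctsk, the collagen-degrading cathepsin K of osteoclasts, had the smallest p of the pathway and family genes, at 4.59 and 4.37 FPKM in the knockout and at 7.04 and 6.93 FPKM in wild type (log2 change -0.54, SE 0.12, limma adjusted p = 0.581). Ctsk and Acp5, which are both secreted by osteoclasts, thus had opposite signs, and each genotype's libraries lay close together for both. Itgb3, the beta3 integrin subunit of osteoclast attachment, was at 10.8 and 8.99 FPKM in the knockout and at 7.26 and 8.09 FPKM in wild type (log2 change 0.32, SE 0.14, limma adjusted p = 0.968). Without knockout library 1 its change was 0.21, and without knockout library 2 it was 0.44. Mmp9 and Cd44 were the most abundant of the list, at 145 ± 45 and 130 ± 5.82 FPKM in the knockout and 119 ± 7.21 and 133 ± 3.45 FPKM in wild type (SD, n = 2).

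Of 6 further fusion genes, 0 passed, 2 were lower without overlap (17.7% of all rows tested), and the median was -0.05. Sirpa, Adam8 and Cd9 averaged 174, 150 and 107 FPKM in the knockout and 177, 128 and 118 FPKM in wild type. P2rx7, an ATP-gated channel, was at 2.70 and 3.25 FPKM in the knockout and at 3.87 and 3.90 FPKM in wild type. Among relatives and partners of the calcitonin receptor, Calcrl was at 3.91 and 4.71 FPKM in the knockout and at 4.55 and 4.73 FPKM in wild type. Ramp3, which encodes a receptor activity-modifying protein, was at 6.67 and 5.47 FPKM in the knockout and at 4.64 and 3.72 FPKM in wild type (log2 change 0.45, SE 0.16, limma adjusted p = 0.878). Ramp1 was at 5.55 and 3.96 FPKM in the knockout and at 5.17 and 5.72 FPKM in wild type, and Ramp2 was listed at 0 in 3 of 4 libraries.

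**Figure D4:**
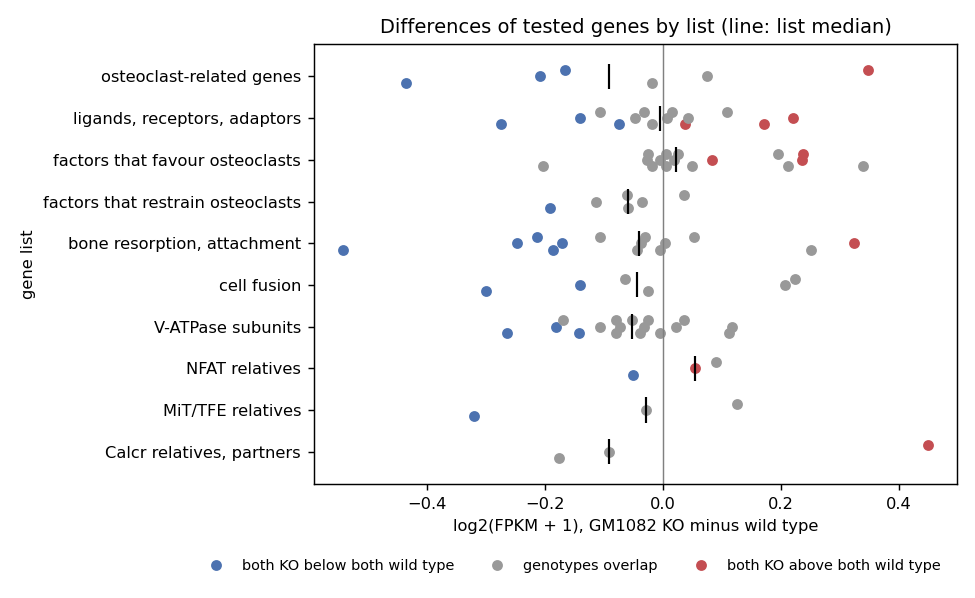
Difference in log2(FPKM + 1), GM1082 KO minus wild type, of the tested genes of each list. Each point is a gene, coloured by whether both knockout libraries lay below or above both wild-type libraries or the genotypes overlapped, and black lines are list medians, which lie between -0.09 and 0.05. Ctsk and Atp6v0d2 are the points farthest to the left and Ramp3 and Acp5 those farthest to the right.

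The rows whose profile over the 4 libraries was most like each gene were sought by the root mean square difference of centred log2(FPKM + 1) values among rows with a symbol whose average over the 4 libraries reached 5 FPKM. The 4 points are few, and 355 rows lay within 0.05 of Nfatc1 and 187 within 0.05 of Mitf. Only Atp6v0d2 had as few as 2 rows within 0.05. The nearest were Dpep3 (difference 0.02), at 4.69 and 4.90 FPKM in the knockout and at 8.12 and 6.11 FPKM in wild type, and Ifrd1 (difference 0.04). For Acp5, with 22 rows within 0.05, they were Myl10 (17.1 and 17.0 FPKM in the knockout, 13.2 and 13.2 FPKM in wild type) and Gapt (51.1 and 51.8 FPKM in the knockout, 39.2 and 40.2 FPKM in wild type). For Dcstamp, with 18, they were Ccne1 and Esco2, both highest in library 2 of their genotype. The nearest rows were Mef2a and Rnf6 for Mitf, Mrpl49 and Edc3 for Nfatc1, and Atp6v0a1 and Vkorc1l1 for Tnfrsf11a, and such likeness over 4 libraries is a description of these libraries only.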

How the data were processed

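The authors deposited FPKM values, 1 column per library, for 62046 rows, of which 21500 carry a gene symbol, per the file headers. The submitters' processing notes list Bowtie 0.12.2 and mm9, but all 8 spans lay within 2 kb of their RefSeq positions on GRCm38, and coordinates are read so. No counting tool is stated. Columns were joined to samples by the description in the labels.

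Rows averaging 1 FPKM or more were fitted as log2(FPKM + 1) by limma (version 3.58.1, R 4.3.3; eBayes with a trend, 4.04 prior and 2 residual degrees of freedom), with genotype as the only term and Benjamini-Hochberg adjustment over all tested rows, read at 0.05. Changes are knockout minus wild type and understate those of low genes. An exact permutation test of 2 against 2 libraries cannot go below p = 0.333. Fragments per FPKM were read from 5184 to 5408 low values per library in noncoding rows of 1000 to 3000 bp, of which 83.5% to 84.2% lay within 0.05 of a whole multiple.

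The 9 genes and all lists were chosen with earlier results of these data known. Named from each list were the 3 tested genes with the highest mean, the 2 with the smallest p, ligands, decoy and family relatives; 1 such gene is not reported here. Marker genes named and the sequences shown were chosen after values were seen. The fit was also run on simulated data with independent noise and a lower filter, and no result here rests on that run.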

Additional observations from a re-analysis of the deposited data

How the results depend on the processing

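In all 14 alternatives 0 of the members tested passed (smallest limma adjusted p = 0.531, Atp6v0d2 without wild-type library 2), and 0 of the pathway genes did (smallest adjusted p = 0.492). With a filter of 5 FPKM, Tnfrsf11a was not tested. The count of all rows called, 3, became 0 with a filter of 0.1 FPKM and with no filter, and lay between 0 and 24 when 1 library was left out. With the replicate number as a block it was 6. The labels do not say that the numbers pair libraries, and deviations of same-numbered libraries correlated at 0.05 over rows. The block changed no call among the members.

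Atp6v0d2, Mitf, Acp5 and Tnfrsf11a kept their direction in every alternative run on them. Their log2 changes were -0.60 to -0.27, -0.26 to -0.16, 0.33 to 0.39 and -0.25 to -0.09. The genotypes did not overlap in these genes, so leaving out 1 library could not turn the sign. Filter, variance and block settings leave the change itself as it is. Nfatc1 changed sign without wild-type library 1, and Dcstamp without wild-type library 2 or knockout library 1, with log2 changes of -0.0198 to 0.168 and -0.27 to 0.23 over the libraries left out. The cause was not tested. Depth limits Oscar and Ocstamp, for which the smallest whole numbers of fragments that give their values did not exceed 14 in any library.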
